A study of Rattus norvegicus with 6 samples.

Results

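Hepcidin and the genes that carry, sense and store iron were followed in 6 expression arrays of rat liver. The set holds 10 genes: hepcidin itself (Hamp), the transferrin receptors Tfr2 and Tfrc, transferrin (Tf), Hfe, the iron exporter ferroportin (Slc40a1), Bmp6, Id1 and the ferritin chains Fth1 and Ftl1. They were found on the array through the transcript accession of each probe, which gave 14 of the 30367 non-control probes, with every gene of the set represented. The set was chosen by a measured value, the very low log2 signal of Hamp on 1 PCN array, so the levels of Hamp are described here and not tested.

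The treated rats received pregnenolone-16α-carbonitrile (PCN) by gavage at 100 mg/kg per day for 7 days, and the control rats received the vehicle, corn oil, over the same 7 days (3 rats per group). PCN, a man-made steroid, is the standard activator of the pregnane X receptor in rodents, a liver sensor of foreign compounds. All rats were male Wistar Hannover [RCCHan:WIST] animals, bought at 4 weeks of age and quarantined for 1 week. Whole liver was used, so fewer cells of a type and less RNA per cell cannot be told apart in any value below.

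Hepcidin is a peptide hormone made by hepatocytes that binds ferroportin, the cellular iron exporter, and causes its breakdown, so that less iron enters the blood from gut, macrophages and liver. Its gene is switched on by bone morphogenetic proteins (BMP2 and BMP6, made largely by liver endothelial cells) through SMAD transcription factors, with HFE, TFR2 and hemojuvelin as helpers, and by interleukin 6 through STAT3. Iron inside the cell is sensed by the iron regulatory proteins, which stabilise the transferrin receptor transcript when iron is short and block translation of ferritin, so ferritin protein can change with no change in its transcript.

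Levels are given as the log2 of the processed signal over the 75th percentile of the same array, called log2 signal below, with 3 rats per group. A difference is the PCN mean minus the control mean on that log2 scale, given with the standard error (SE) and the Benjamini-Hochberg adjusted p of limma over all 16389 tested genes. The 75th percentile of the signal lay between 488 and 627 on the PCN arrays and between 633 and 758 on the control arrays. Arrays of 1 group correlated at 0.990 to 0.993 over the tested genes, PCN replicate 1 with the other PCN arrays at 0.991 and 0.993. All 8 targets of the pregnane X receptor that were checked rose with PCN, and all 12 hepatocyte markers were above background on each array. The PCN arrays lay on 1 slide and the control arrays on another, so the effects of the slide and of PCN cannot be told apart in any difference between the groups. The labels call the arrays biological replicates.

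Hamp was nearly lost from 1 of the 3 PCN livers and was at or above the control level in the other two. The log2 signal of Hamp was -2.25, 5.90 and 6.66 in PCN replicates 1, 2 and 3, against 5.91, 6.08 and 5.72 in control replicates 1, 2 and 3. PCN replicate 1 thus lay 7.96 below the next lowest array on the log2 scale, which is 249-fold. The array carries 10 spots of the Hamp probe. On PCN replicate 1 all 10 were used and lay between -2.40 and -2.15, with a median of -2.18, while on the other 5 arrays 9 spots each were used and none lay below 5.64. The mean processed signal of those spots was 125 on PCN replicate 1, 37561 and 49465 on PCN replicates 2 and 3, and 33322 to 51318 on the control arrays. All 10 spots of PCN replicate 1 were well above background, so the low value is a measured level and not a bound. No other tested gene lay as far below its remaining arrays on PCN replicate 1: Hamp ranked 1 of 16389, and the next gene, the aldehyde oxidase Aox2, lay 2.45 below. Genes more than 3 below the other 5 arrays on the log2 scale were also found elsewhere. They numbered 1 on PCN replicate 1 (Hamp), 2 on PCN replicate 2, 2 on control replicate 1, 1 on control replicate 3 and 0 on the other arrays.

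**Figure D1:**
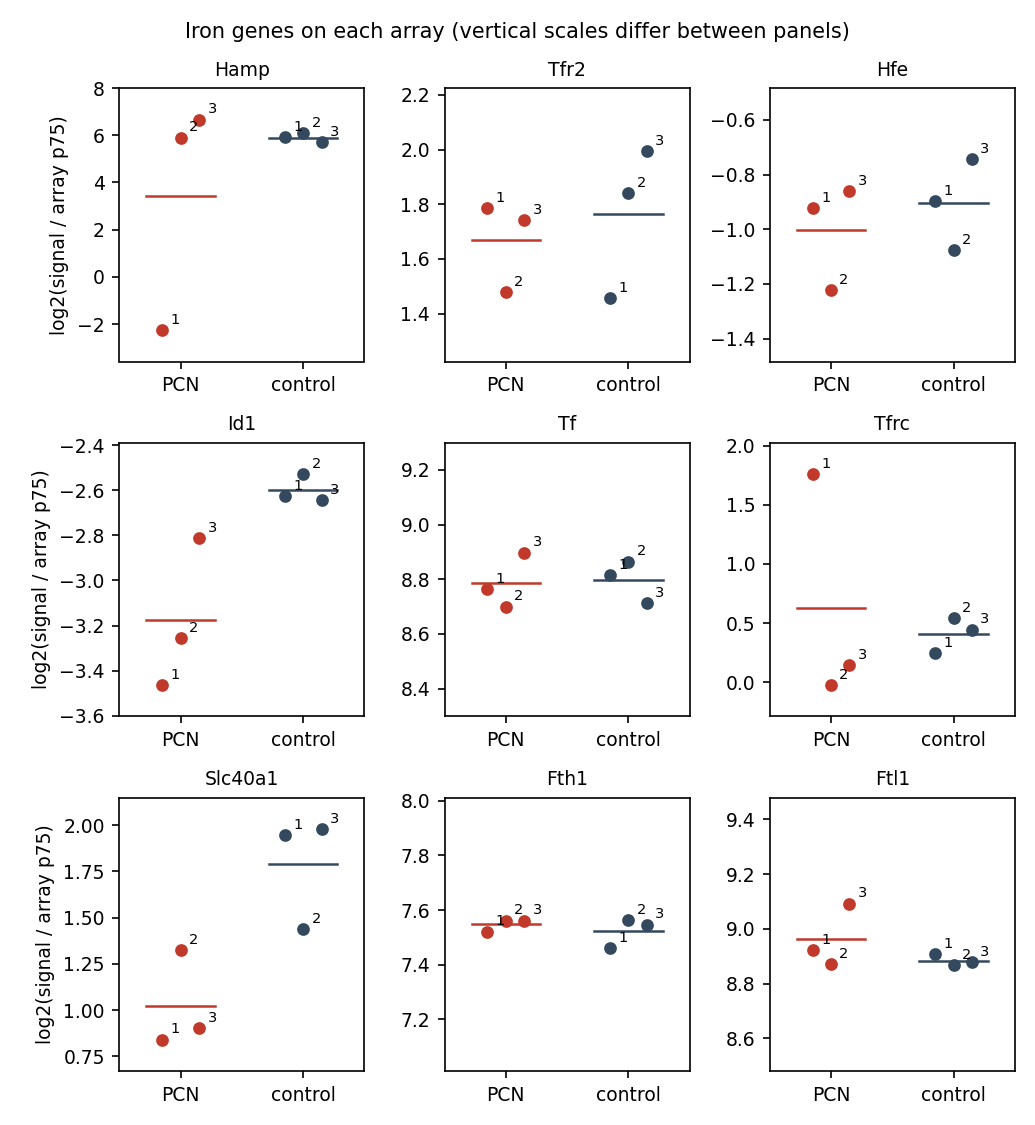
Log2 signal (processed signal over the 75th percentile of the array) of the 9 tested genes of the set, with the PCN rats in red on the left and the control rats in dark blue on the right. Points are single arrays with the replicate number beside them and lines are group means. Hamp is at -2.25 on PCN replicate 1 and between 5.72 and 6.66 on the other 5 arrays, Tfrc is highest on PCN replicate 1, and Slc40a1 is lower on all PCN arrays.

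The mean log2 signal of Hamp was 3.44 ± 4.94 with PCN and 5.90 ± 0.18 in controls (SD, n = 3 each), and the mean with PCN therefore describes none of the 3 rats. The difference of the means was -2.46, and 0.38 without PCN replicate 1.

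The region just before the start of Hamp is shown because it carries the 2 best known inputs to the gene, the BMP-responsive element GGCGCC and a STAT site. The RefSeq promoter table (build GRCr8) held 7 of the 10 genes, and the 250 bases before each start were searched on both strands for GGCGCC, for TTCNNNGAA, the STAT consensus, and for ACGTG, the core of hypoxia response elements. Both of the first motifs read the same on either strand, and no matches overlapped. The Hamp window, chr1:95300272-95300521 on the minus strand, is printed 5′ to 3′ with matches in capitals. Tfrc, the gene that moved the other way on the same array, is printed beside it (chr11:81690319-81690568, minus strand).
Hamp: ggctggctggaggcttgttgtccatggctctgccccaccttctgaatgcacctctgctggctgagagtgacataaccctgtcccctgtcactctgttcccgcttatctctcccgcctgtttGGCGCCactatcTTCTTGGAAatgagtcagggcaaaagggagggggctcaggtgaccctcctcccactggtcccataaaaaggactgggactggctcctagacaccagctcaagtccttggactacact
Tfrc: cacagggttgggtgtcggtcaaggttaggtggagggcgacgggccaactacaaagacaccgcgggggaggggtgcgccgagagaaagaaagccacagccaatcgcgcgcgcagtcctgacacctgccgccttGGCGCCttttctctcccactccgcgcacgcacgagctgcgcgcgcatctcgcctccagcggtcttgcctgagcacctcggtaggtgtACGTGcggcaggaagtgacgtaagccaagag
In Hamp the GGCGCC match began 129 bases before the start and the STAT match, TTCTTGGAA, 117 bases before it, with 6 bases between them. Tfrc held GGCGCC 118 bases and ACGTG 31 bases before its start. The windows of Tfr2, Tf, Slc40a1, Bmp6 and Id1 held none of the 3 motifs. Of 33469 promoters in the table, 8.69% hold GGCGCC, 7.67% TTCNNNGAA and 16.6% ACGTG in the same window, and a match describes letters, not binding.

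Transferrin receptor 1 (Tfrc), which takes transferrin-bound iron into cells, was highest where Hamp was lowest. Its log2 signal was 1.76, -0.02 and 0.14 in PCN replicates 1 to 3, against 0.24, 0.54 and 0.44 in control replicates 1 to 3. PCN replicate 1 lay 1.22 above the next highest array (2.32-fold), which placed Tfrc second of 16389 genes in distance above the other 5 arrays on that array. The second Tfrc probe was also highest on PCN replicate 1, with -2.77, -4.22 and -4.30 in PCN replicates 1 to 3, against -3.86, -3.48 and -3.67 in controls, and PCN replicate 1 lay 1.63-fold above the next highest array. As a group the PCN rats did not pass the test for Tfrc (0.22 ± 0.45, adjusted p = 0.774), and without PCN replicate 1 the difference was -0.35 (adjusted p = 0.154). Tfrc is also abundant in immature red blood cells. Of 8 tested red blood cell and erythroid markers none was highest on PCN replicate 1 and 2 were lowest there. Of all tested genes 14.7% were highest and 13.0% lowest on that array. Among the defining markers, Alas2 had a log2 signal of 1.00, 1.46 and 1.40 in PCN replicates 1 to 3 and 0.97, 1.43 and 1.17 in controls. Alas2 was named after its values were seen. Transferrin (Tf), the plasma iron carrier, did not pass the test (-0.01 ± 0.10, adjusted p = 0.956), with a log2 signal of 8.76, 8.70 and 8.90 in PCN replicates 1 to 3 and 8.82, 8.86 and 8.71 in controls. The groups overlapped for Tfrc and for Tf.

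**Figure D2:**
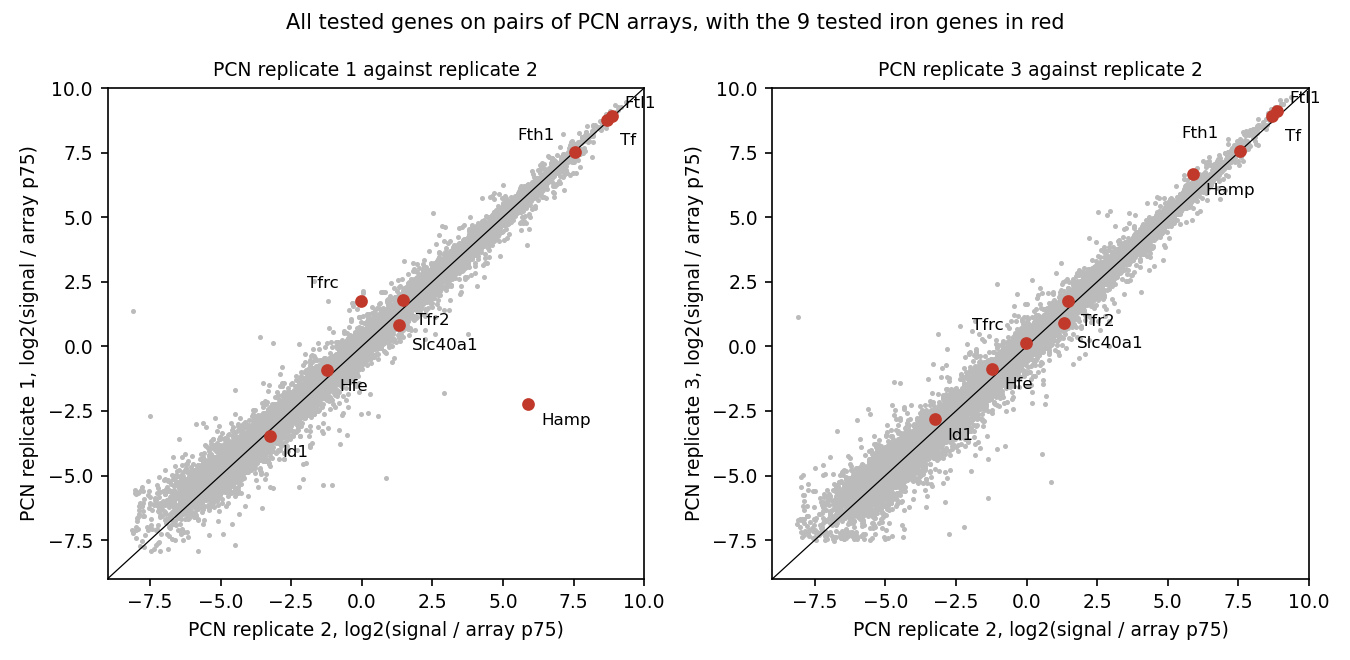
Log2 signal of all 16389 tested genes (grey) on PCN replicate 1 against PCN replicate 2 (left) and on PCN replicate 3 against PCN replicate 2 (right), with the 9 tested iron genes in red and the line of equal values in black. On the left Hamp lies far below the line (-2.25 against 5.90) and Tfrc above it (1.76 against -0.02), while on the right all 9 lie within 1 log2 unit of the line.

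The membrane proteins that report iron to hepcidin did not differ between the groups beyond their spread, and did not stand apart on PCN replicate 1. Transferrin receptor 2 (Tfr2), the hepatocyte sensor of iron-loaded transferrin, had a log2 signal of 1.79, 1.48 and 1.74 in PCN replicates 1 to 3, against 1.46, 1.84 and 1.99 in controls (-0.10 ± 0.17, adjusted p = 0.731). Hfe, the protein mutated in the commonest human hemochromatosis, gave -0.92, -1.22 and -0.86 with PCN, against -0.90, -1.08 and -0.74 in controls (-0.10 ± 0.14, adjusted p = 0.679). For both genes PCN replicate 1 lay inside the range of the other 5 arrays, and the groups overlapped. The second Hfe probe gave 0.09 ± 0.14 and did not pass, with PCN replicate 1 as its highest array by 0.17. Bmp6, the ligand that rises with liver iron, has 1 probe, which reached the well above background mark on 0 of the 6 arrays, so it was not tested.

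Id1, a transcriptional inhibitor and standard readout of BMP and SMAD signalling, was lower on each PCN array than on each control array. Its log2 signal was -3.46, -3.25 and -2.81 in PCN replicates 1 to 3, against -2.63, -2.53 and -2.64 in controls. The groups did not overlap, which holds for 41.4% of all tested genes, and PCN replicate 1 was the lowest array by 0.21. The difference of -0.58 ± 0.17 did not pass the test (adjusted p = 0.0604). It passed without PCN replicate 3 (-0.76, adjusted p = 0.0148) and under spike-in (E1A) scaling (-0.77, adjusted p = 0.0273), and was smaller with normexp background correction (-0.24, adjusted p = 0.222) and without PCN replicate 1 (-0.43, adjusted p = 0.133).

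Ferroportin (Slc40a1), the exporter that hepcidin removes from the cell surface, was the 1 tested gene of the set that passed. It was 1.70-fold lower with PCN (-0.77 ± 0.20, adjusted p = 0.0385). Its log2 signal was 0.84, 1.32 and 0.90 in PCN replicates 1 to 3, against 1.95, 1.44 and 1.98 in controls, and the groups did not overlap. PCN replicate 1 lay 0.06 below the next lowest array, PCN replicate 3, so ferroportin transcript was not set apart on the array where Hamp was low. The second Slc40a1 probe gave 0.40, 0.46 and 0.33 in PCN replicates 1 to 3, against 1.35, 0.94 and 1.29 in controls (-0.80 ± 0.13, adjusted p = 0.00947), with PCN replicate 3 as its lowest array. At the first probe the call ended without PCN replicate 1 or 3 or control replicate 1 or 3 (adjusted p = 0.101 to 0.117), under median scaling (-0.56, adjusted p = 0.0883) and with no filter on dim probes (adjusted p = 0.0928), and its direction held in each. In liver ferroportin is made by Kupffer cells, the resident macrophages, as well as by hepatocytes. The summed signal of 11 Kupffer cell markers, relative to the 75th percentile, was 48.4 to 70.3 on the PCN arrays and 68.3 to 78.3 on the control arrays. None of those 11 passed the test in limma (3 had an unadjusted p under 0.05), against 19.9% of all tested genes. All 11 differences were negative, from -0.52 to -0.22. Their median was -0.39, against -0.06 over all genes. The part of Kupffer cells in the ferroportin result was not tested.

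The ferritin chains, which together form the iron storage shell, did not differ beyond their spread. Fth1, the heavy chain, had a log2 signal of 7.52, 7.56 and 7.56 in PCN replicates 1 to 3, against 7.46, 7.56 and 7.55 in controls (0.03 ± 0.09, adjusted p = 0.877). The second Fth1 probe gave 7.49, 7.38 and 7.52 with PCN, against 7.29, 7.45 and 7.39 in controls (0.09 ± 0.10, adjusted p = 0.583). Ftl1, the light chain, had 8.92, 8.87 and 9.09 with PCN, against 8.91, 8.87 and 8.88 in controls (0.08 ± 0.10, adjusted p = 0.631). Both genes have many near-identical processed copies in rodent genomes, and which copies a probe reads was not tested. In all, 1 of the 8 tested genes other than Hamp passed (12.5%), against 19.9% of all tested genes, and it was lower, as were 15.5% of all tested genes, while 0 of the 8 were higher, against 4.37%. Their median difference was -0.05, against -0.06 over all genes.

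**Figure D3:**
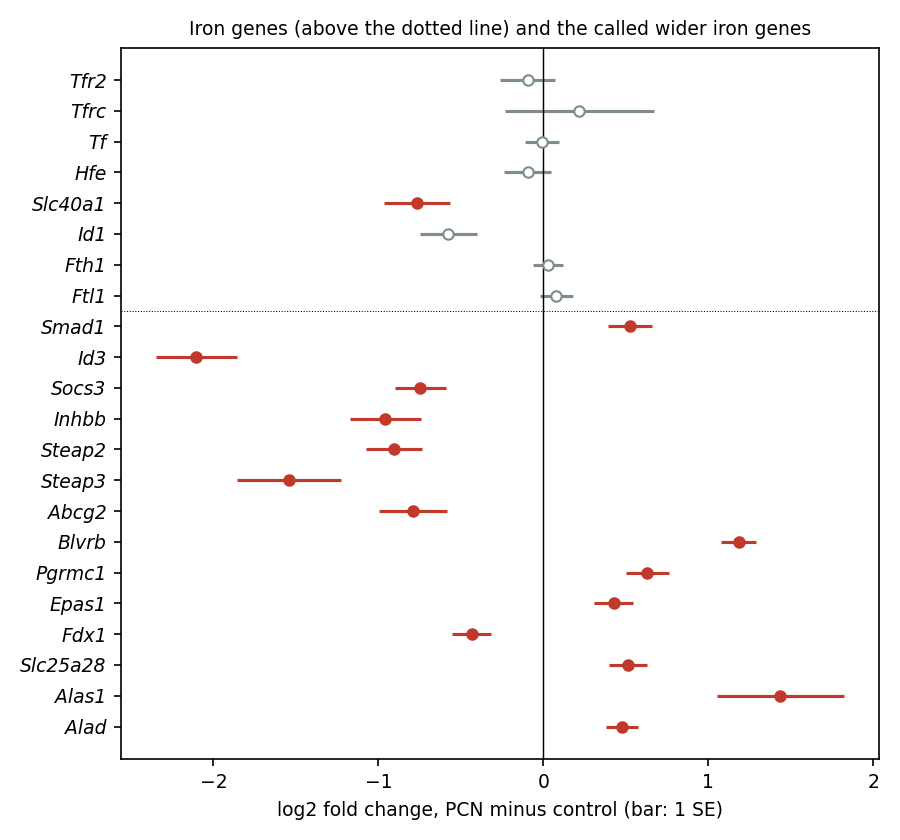
Log2 fold change (PCN minus control) with 1 SE for the 8 tested genes of the set other than Hamp, above the dotted line, and for the 14 wider iron genes that passed the test, below it. Filled red points passed at an adjusted p under 0.05 and open grey points did not. Slc40a1 is the 1 filled point above the line, and Id3 and Alas1 are the points farthest to the left and right.

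Around these genes, 118 further genes of iron biology were listed, of which 99 were tested. In this wider group 7 rose and 7 fell with PCN, 14.1% in all, against 19.9% of all tested genes (4.37% higher and 15.5% lower). Their median difference was -0.03. Under median scaling, which raises the median of all genes from -0.06 to 0.14, 21 rose and 5 fell, and under spike-in scaling, which lowers it to -0.25, 2 rose and 12 fell. The calls of Id3 and Blvrb were the 2 kept in each of 18 alternative fits.

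Among 21 tested genes of BMP and SMAD control, 1 rose and 1 fell (9.52% called, against 19.9% of all tested genes), with a median of -0.13. Id3, a sister of Id1, was 4.29-fold lower with PCN (-2.10 ± 0.25, adjusted p = 0.00274). Its log2 signal was -3.74, -2.83 and -3.66 in PCN replicates 1 to 3, against -1.32, -1.16 and -1.43 in controls. The PCN arrays all lay far below the controls, and the difference was -1.27 with normexp. Smad1, a SMAD that BMP receptors phosphorylate, had 0.82, 1.25 and 0.93 with PCN, against 0.41, 0.47 and 0.55 in controls, and rose by 0.53 ± 0.13 (adjusted p = 0.0369). That call ended in 9 of 18 alternatives, among them cyclic loess and spike-in scaling (adjusted p = 0.0509 and 0.346) and the fits without PCN replicate 2 or 3 or any 1 control (adjusted p = 0.0559 to 0.110). Hemojuvelin (Hjv), the BMP co-receptor, gave -0.16 ± 0.15, and Tmprss6, the protease that cuts it, -0.17 ± 0.13 (adjusted p = 0.477 and 0.387). The ligand Bmp2 gave -0.32 ± 0.12 (adjusted p = 0.125), with 0.20, 0.43 and 0.07 with PCN and 0.47, 0.53 and 0.63 in controls. None of these 3 was beyond the other arrays on PCN replicate 1. Smad6 was not analysed here.

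Transcripts known as targets of BMP and SMAD signalling were compared array by array, a subset of 6 chosen after the values were seen. PCN replicate 1 was the lowest array for 4 of these 6, namely Id1, Id2, Id3 and Smad7, which is a description of genes picked with their values known. Over the full BMP and SMAD list, 3 of 21 tested genes (Id2, Id3 and Smad7) were lowest and 3 were highest on that array. Of all tested genes 13.0% were lowest and 14.7% highest there, so the list was close to the shares of all genes. Id2 had a log2 signal of 0.73, 1.48 and 2.28 in PCN replicates 1 to 3, against 1.98, 1.40 and 2.32 in controls, so PCN replicate 1 lay 0.67 below the next array. Smad7, the inhibitory SMAD that BMPs induce, had -0.70, -0.14 and 0.51 with PCN, against -0.16, -0.14 and 0.22 in controls, with PCN replicate 1 lower by 0.54. For both genes the groups overlapped. Neither passed as a group (Id2 -0.41 ± 0.41, adjusted p = 0.533, and Smad7 -0.08 ± 0.30, adjusted p = 0.875). Atoh8, a BMP-responsive activator of hepcidin, had -0.66, -0.97 and -0.23 with PCN, against -0.12, -0.12 and -0.14 in controls, where PCN replicate 2 was lowest and not replicate 1 (-0.49 ± 0.19, adjusted p = 0.115). It passed under spike-in scaling and without PCN replicate 3 (adjusted p = 0.0205 and 0.0250). Id4 had 0.12, 0.39 and 0.34 with PCN, against 0.33, 0.11 and 0.63 in controls.

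**Figure D4:**
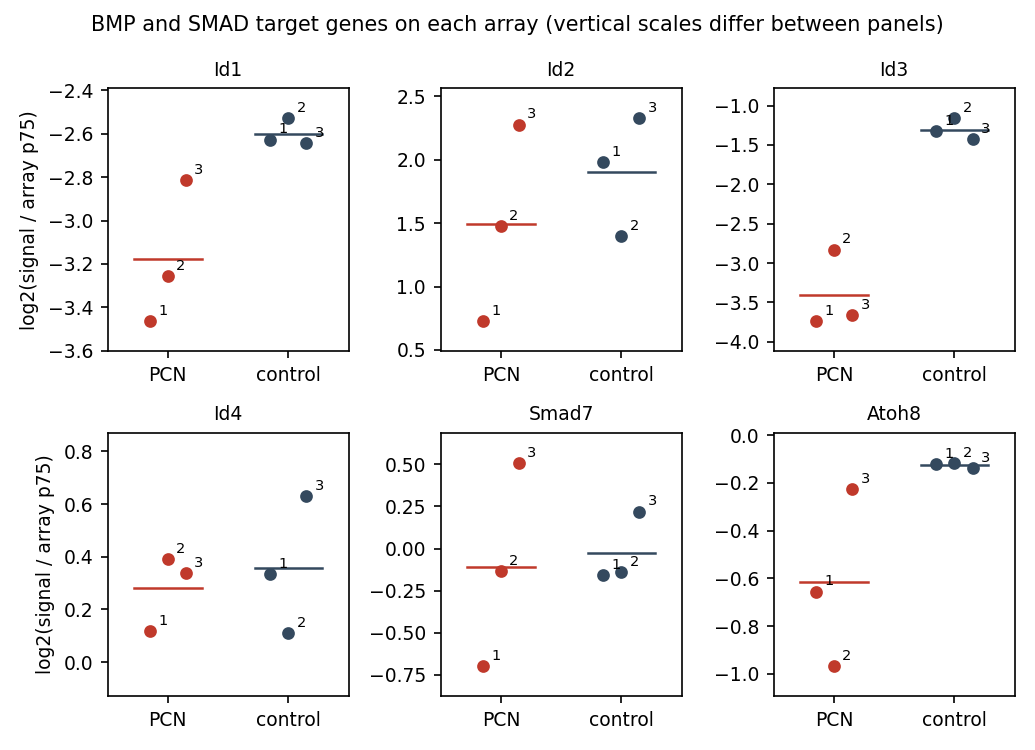
Log2 signal of Id1, Id2, Id3, Id4, Smad7 and Atoh8 on each array, with the PCN rats in red on the left and the control rats in dark blue on the right. Points are single arrays with the replicate number beside them and lines are group means. PCN replicate 1 is the lowest of the 6 arrays for Id1, Id2, Id3 and Smad7, and Id3 is lower on all PCN arrays than on any control array. These genes were chosen after their values were seen.

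Of 11 tested genes of interleukin 6 and STAT3 control 2 fell (18.2%, against 15.5% of all tested genes) and 0 rose, with a median of -0.03. Socs3, the feedback inhibitor that STAT3 induces, had a log2 signal of -3.11, -3.09 and -3.37 in PCN replicates 1 to 3, against -2.42, -2.69 and -2.22 in controls. It fell by 0.75 ± 0.15 (adjusted p = 0.0180), and by 0.41 with normexp. The call ended without control replicate 1 or 3 (adjusted p = 0.0607 and 0.0555). Inhbb, the subunit of activin B, which induces hepcidin in mice, had -0.53, -0.83 and -0.02 with PCN, against 0.34, 0.69 and 0.47 in controls, and fell by 0.96 ± 0.22 (adjusted p = 0.0246). Its call ended when any array but PCN replicate 3 was left out (adjusted p = 0.0527 to 0.0770), and its second probe gave -1.06 ± 0.46 (adjusted p = 0.160). Stat3 itself had 1.35, 1.70 and 1.30 with PCN, against 1.98, 2.15 and 1.79 in controls (-0.52 ± 0.15, adjusted p = 0.0555), and passed with quantile normalization, cyclic loess, the trend and robust variance model, and without PCN replicate 2 (adjusted p = 0.0478, 0.0486, 0.0329 and 0.0330). Il6st, the signalling chain of the interleukin 6 receptor, gave -0.03 ± 0.17 (adjusted p = 0.917). Il6 did not reach the well above background mark on any array. Acute phase proteins, whose genes share the interleukin 6 input, held 0 of 17 called members in limma (1 at an unadjusted p under 0.05), with a median of 0.03 and a summed signal of 3089 to 3534 on the PCN arrays and 3193 to 3548 on the control arrays.

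Of 12 tested genes of iron uptake, reduction and export 2 fell (16.7%, against 15.5% of all tested genes) and 0 rose. Their median was -0.27, against -0.06 over all genes, and both that fell were reductases. Steap3, a ferrireductase of endosomes that readies transferrin iron for transport, had a log2 signal of -4.33, -4.91 and -3.68 in PCN replicates 1 to 3, against -3.02, -2.46 and -2.80 in controls. It was 2.91-fold lower (-1.54 ± 0.31, adjusted p = 0.0176), with -0.66 under normexp, and the call ended without control replicate 2 or 3 (adjusted p = 0.0567 and 0.0523). Steap2, a related reductase, had -5.08, -5.13 and -5.33 with PCN, against -3.94, -4.40 and -4.48 in controls, and fell by 0.91 ± 0.17 (adjusted p = 0.0127). On the PCN side 2 of 3 arrays had it well above background, and the call ended under normexp (-0.10, adjusted p = 0.575) and quantile normalization (-0.59, adjusted p = 0.0630). The ferrous iron transporter Slc11a2 gave 0.15 ± 0.11 (adjusted p = 0.375, and -0.10 at its second probe), and the hepatocyte importer Slc39a14 -0.40 ± 0.12 (adjusted p = 0.0601), which passed under spike-in scaling (adjusted p = 0.0232). Ceruloplasmin (Cp), the plasma ferroxidase, gave -0.00 ± 0.12 at its brighter probe (adjusted p = 0.990) and -0.49 ± 0.13 at its other probe (adjusted p = 0.0439), so its probes disagreed.

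Of 15 genes of heme and hemoglobin iron 2 rose and 1 fell (median -0.01), so that 20% were called, against 19.9% of all tested genes. Of 8 heme synthesis genes 2 rose and 0 fell, with a median of 0.16. That is 25% called, against 19.9% of all tested genes (4.37% higher and 15.5% lower). Blvrb, biliverdin reductase B, was 2.27-fold higher with PCN (1.18 ± 0.10, adjusted p = 0.00104), with a log2 signal of 5.48, 5.68 and 5.71 in PCN replicates 1 to 3, against 4.43, 4.49 and 4.41 in controls. The groups stood well apart, and its second probe gave 0.94 ± 0.14 (adjusted p = 0.00638). Pgrmc1, a heme-binding membrane protein that partners cytochromes P450, had 5.43, 5.83 and 5.58 with PCN, against 5.04, 5.01 and 4.90 in controls, and rose by 0.63 ± 0.13 (adjusted p = 0.0176). Its call ended under spike-in scaling (adjusted p = 0.202) and without any 1 control (adjusted p = 0.0503 to 0.0639), while its other probes gave 0.81 and 0.73. Abcg2, an efflux pump that also carries porphyrins, had -2.56, -1.77 and -2.07 with PCN, against -1.31, -1.24 and -1.48 in controls. It fell by 0.79 ± 0.21 (adjusted p = 0.0388), a call that ended with quantile, median and cyclic loess scaling (adjusted p = 0.0630, 0.0836 and 0.0610) and without PCN replicate 1 or 3 or any 1 control (adjusted p = 0.0531 to 0.110). Hmox1, heme oxygenase 1, gave -0.28 ± 0.17, and hemopexin (Hpx), the plasma heme scavenger, -0.02 ± 0.13 (adjusted p = 0.313 and 0.947).

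Alas1, which sets the pace of liver heme production, had a log2 signal of 5.78, 6.47 and 7.32 in PCN replicates 1 to 3, against 4.88, 5.49 and 4.89 in controls. The rise was smallest in the rat with low Hamp, and without that array the difference was 1.81 (adjusted p = 0.0185), against 1.44 ± 0.39 with all arrays (adjusted p = 0.0437). Its call ended without any other 1 array (adjusted p = 0.0613 to 0.127), with the deposited value table (adjusted p = 0.0510) and with the trend and robust variance model (adjusted p = 0.0610). Alad, the next enzyme of the pathway, had 6.91, 6.91 and 7.05 with PCN, against 6.50, 6.42 and 6.51 in controls, and rose by 0.48 ± 0.10 (adjusted p = 0.0174). That call ended under spike-in scaling (adjusted p = 0.265) and without PCN replicate 3 or any 1 control (adjusted p = 0.0521 to 0.0622).

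**Figure D5:**
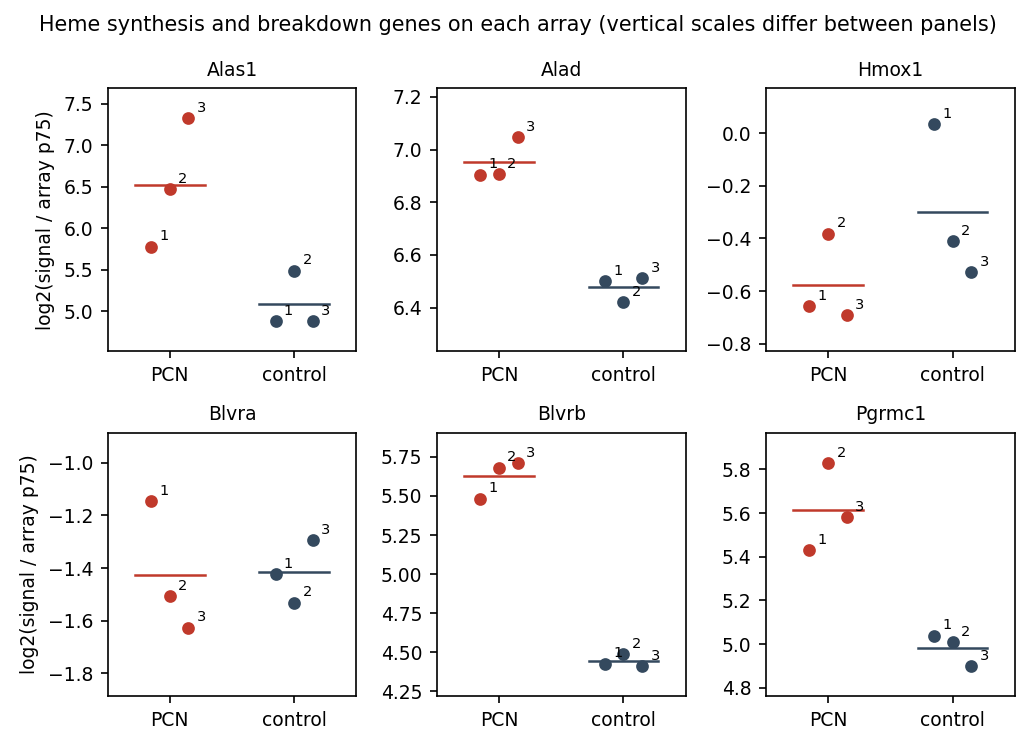
Log2 signal of Alas1, Alad, Hmox1, Blvra, Blvrb and Pgrmc1 on each array, with the PCN rats in red on the left and the control rats in dark blue on the right. Points are single arrays with the replicate number beside them and lines are group means. Alas1, Alad, Blvrb and Pgrmc1 are higher on all PCN arrays, with Alas1 between 5.78 and 7.32 there, while Hmox1 and Blvra overlap. Blvra was chosen after its values were seen.

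Of 12 iron sensing and storage genes 1 rose (8.33%, against 4.37% of all tested genes) and 0 fell, with a median of -0.06. The 1 that rose was Epas1, the hypoxia factor HIF2 alpha, with 0.45, 0.59 and 0.59 with PCN, against 0.04, 0.30 and 0.01 in controls (0.43 ± 0.12, adjusted p = 0.0488). It lost the call in 9 of 18 alternatives, among them cyclic loess and spike-in scaling (adjusted p = 0.0742 and 0.463) and the fits without any 1 PCN array or control replicate 1 or 3 (adjusted p = 0.0719 to 0.148). The iron regulatory proteins did not pass, Aco1 at 0.14 ± 0.09 (adjusted p = 0.332) and Ireb2 at 0.01 ± 0.09 (adjusted p = 0.964), and neither was beyond the other arrays on PCN replicate 1. Ncoa4, the receptor that sends ferritin to lysosomes, gave 0.15 ± 0.11 (adjusted p = 0.388). Of 20 genes of mitochondrial iron and iron-sulfur clusters 1 rose and 1 fell (10% called, against 19.9% of all tested genes, median 0.04). Slc25a28, mitoferrin 2, had 1.96, 2.24 and 2.21 with PCN, against 1.67, 1.64 and 1.56 in controls, and rose by 0.51 ± 0.11 (adjusted p = 0.0228, and 0.39 at its second probe with adjusted p = 0.0556). The ferredoxin Fdx1 had 4.30, 4.23 and 4.00 with PCN, against 4.52, 4.62 and 4.70 in controls, and fell by 0.43 ± 0.12 (adjusted p = 0.0455). The Slc25a28 call ended when any array but PCN replicate 1 was left out (adjusted p = 0.0558 to 0.0793), and the Fdx1 call when any array was left out (adjusted p = 0.0577 to 0.138). Both calls also ended under spike-in scaling (adjusted p = 0.295 and 0.0508), and that of Fdx1 under median scaling (adjusted p = 0.178).

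Seen over the whole iron group, PCN replicate 1 was not generally apart from the other arrays. Of the 99 wider genes 10 were lowest and 11 highest on that array (10.1% and 11.1%), against 13.0% and 14.7% of all tested genes. Of the 8 tested genes of the set other than Hamp, 2 were lowest there (Slc40a1 and Id1) and 1 highest (Tfrc). Hamp is not counted, since the set was chosen by its value on that array. By more than 1 on the log2 scale, 24 of all tested genes lay below and 2 above the other 5 arrays on PCN replicate 1. Those numbers were 104 and 23 on PCN replicate 2 and 80 and 13 on PCN replicate 3. On control replicates 1 to 3 they were 10, 3 and 15 below and 14, 136 and 31 above. The number below on PCN replicate 1 was thus under those of the other PCN arrays and over those of the controls. Tfrc was 1 of the 2 genes above on PCN replicate 1. The other was the methyltransferase Inmt, chosen after its value was seen.

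The 5 named genes whose levels over the 6 arrays correlated best with Hamp were Aox2, Btbd10, Mib1, Dlat and Npat, with Pearson r of 0.999, 0.998, 0.983, 0.969 and 0.965. With 1 array so far from the rest, this likeness says little more than that PCN replicate 1 was also their lowest array. Aox2 had a log2 signal of -4.54 on PCN replicate 1, and -2.09 and -1.84 on PCN replicates 2 and 3, against -2.03, -1.93 and -2.06 on control replicates 1 to 3. Btbd10 lay at -1.87 on PCN replicate 1, and between -1.60 and -1.59 on the other 5 arrays.

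Marker lists of other cells were summed on each array. The summed signal of 9 red blood cell and erythroid markers was 730 on PCN replicate 1, and 870 and 848 on PCN replicates 2 and 3. It was 789 to 921 on the control arrays, so the sum was lowest on the array with low Hamp. The globins Hba-a1, Hbb and Hbb-b1, by far the brightest, weigh most in that sum. Of the 8 tested markers, Hbb and Hbb-b1 were the 2 that were lowest there. These globins were named after their values were seen. The summed signal of 12 hepatocyte markers was 2722 on PCN replicate 1, within 2309 to 2952 on the PCN arrays and against 2603 to 2675 on the control arrays. That of 7 liver endothelial markers, the cells that make Bmp2 and Bmp6, was 28.1 on PCN replicate 1. The sum lay within 26.1 to 30.1 with PCN, against 27.6 to 30.6 in controls. Kdr, by far the brightest of the 7 (difference 0.00), weighs most in that sum. The median difference of the 7 was -0.23, against -0.06 over all genes. Of the 7, 1 was called lower (14.3%, against 15.5% of all tested genes), namely Cdh5. Kdr and Cdh5 were named after their values were seen. The summed signal of 6 neutrophil markers was also lowest on PCN replicate 1, at 0.476. It was 0.880 and 0.594 on PCN replicates 2 and 3 and 0.697 to 1.35 on the control arrays. Of the 3 tested neutrophil markers, 2 were lowest on PCN replicate 1, against 13.0% of all tested genes. Of T cell markers 2 of 5 fell (40%) and of neutrophil markers 1 of 3 (33.3%), against 15.5% of all tested genes, and of stellate cell markers 1 of 11 rose and 2 fell (27.3%, against 19.9% called either way). The part of these cells in the Hamp and Tfrc values was not tested.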

How the data were processed

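Liver RNA of 6 rats was labelled with Cy3 (100 ng each) and hybridised to Agilent 1-colour arrays, per the labels' protocols. Per the file headers, the scanner software was Agilent Feature Extraction 10.7.3.1, and the intensity values the authors deposited are processed signals with the background taken off inside each array, without scaling across arrays. Per the file headers, other columns hold quality marks (0 or 1 for each spot). A further table that the authors deposited holds a linear ratio, which set against the scanner values (correlation 1 on bright spots) is the processed signal over the 75th percentile of that array.

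From the intensities, log2 signal relative to the 75th percentile of non-control spots was computed (R 4.3.3, with the data.table package, version 1.17.8). Control and outlier spots were left out, spots of a probe were averaged, and 0 spots were saturated. A probe was tested if at least 50% of its spots were well above background on all 3 arrays of a group, giving 18329 probes. Names came from RefSeq accessions (18004 of 30367 probes matched 1 symbol), and the brightest tested probe stood for a gene, giving 16389 genes. limma 3.58.1 compared the groups (lmFit and eBayes, two-sided, 3 arrays each, no covariate), with adjusted p under 0.05 as the threshold. On simulated data over 16389 genes, 100 of them changed, 72% of changes of 1 and 90% of changes of 2 (log2) were recovered, with 9 false calls. In the data 3263 genes were called, far more than were changed in the simulation, so these rates need not hold here. The number of arrays limits the precision.

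The genes of the set and the lists were chosen with earlier results of these data known. Genes named by rule are those of the set, listed iron genes past the test or of known central role, and the 5 most like Hamp. Other named genes, among them Inmt, Id4, Alas2, Blvra, Kdr, Cdh5 and the globins, were chosen after their values were seen. The array design uses build rn4, per the file headers; promoters came from the RefSeq table, build GRCr8, in which 7 of the 10 genes were found. Replicate numbers did not pair the arrays: same-numbered arrays correlated at -0.10, -0.03 and -0.05 in their deviations from the group means. Alternatives were other scalings, normexp on median signals (mean signals were planned but are not used here), the deposited table, other filters and probe rules, a trend and robust variance model, a replicate block and leaving out each array.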

Additional observations from a re-analysis of the deposited data

How the results depend on the processing

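The number of changed genes, 3263 with 716 higher and 2547 lower, was 1967 with no filter on dim probes, 2067 with the replicate block and 2023 to 2592 with 1 array left out (lowest without control replicate 1). The share of calls that were lower, 78.1%, was 66% with quantile normalization, 41% with median scaling, 95.6% with spike-in scaling and 64.4% with normexp. The 1 call among the 8 tested genes of the set became 0 with median scaling, no filter or the replicate block (limma, 2 at an unadjusted p under 0.05 in each), 2 with spike-in scaling, and 0 to 1 with 1 array left out. The 14 calls among the wider genes became 26 with median scaling, 4 with no filter, 3 with the replicate block and 3 to 11 with 1 array left out. The replicate block is a fit by number only, since the numbers did not pair the arrays, and the Slc40a1 call ended under it (adjusted p = 0.110).

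Sign changes occurred only in genes that did not pass with all arrays at the stated setting, though Slc11a2 and Aco1 passed as higher under median scaling (adjusted p = 0.0444 and 0.0433). Under median scaling these were Tfr2 (0.11), Tf (0.20), Hfe (0.11), Hjv (0.043), Tmprss6 (0.031), Smad7 (0.12), Il6st (0.17), Cp (0.20) and Hpx (0.19). Under spike-in scaling they were Fth1 (-0.16), Ftl1 (-0.11), Slc11a2 (-0.034), Aco1 (-0.051), Ireb2 (-0.18) and Ncoa4 (-0.040), and Fth1 also gave -0.019 with quantile normalization and -0.053 with cyclic loess. Other probes turned Tfrc (-0.094), Hfe (0.089) and Slc11a2 (-0.10). With 1 array left out the difference spanned 0 for Tfr2 (-0.25 to 0.020), Tfrc (-0.35 to 0.54), Tf (-0.066 to 0.033), Hfe (-0.18 to 0.015), Fth1 (-0.0065 to 0.045), Smad7 (-0.39 to 0.21), Il6st (-0.14 to 0.12), Cp (-0.057 to 0.092), Hpx (-0.10 to 0.072) and Ireb2 (-0.027 to 0.048).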
